A study of Mus musculus with 4 samples.

Results

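The subject is a set of 37 mouse genes of glycolysis, nutrient uptake and mTOR signalling, and the accessible chromatin regions around them in cultured natural killer (NK) cells. A region belonged to the set when one of the 37 was the protein-coding gene whose span lay closest to it. This gave 291 of the 91266 regions deposited for the series, and each of the 37 genes had at least 1, among 16388 protein-coding genes with a region. The regions came from ATAC-seq, in which a transposase cuts and tags open DNA. There were 4 samples of wild-type (WT) splenic NK cells of the C57BL/6 strain, 2 cultured for 72 hours in a high dose (HD) of interleukin-15 and 2 cultured as long in a low dose (LD), with about 75000 cells in each assay. The concentrations of the doses are not given in the sources used here, and the cells were studied in culture.

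The deposited tables hold positions and no value per sample, so the spread between the 2 replicates of a dose could not be measured and depth is unknown. Regions are described by whether the authors' deposited table lists them as up or down between the doses. The table does not say which dose was the reference, and neither list is assigned to a dose here. Nor does it give a fold change or a p-value. All shares are therefore descriptions, and their 95% Wilson intervals cover counting error only. Where a count is 0, the share it allows is given as 3 counts of the total, in place of the Wilson limit. As a check of the label, all 9 NK cell genes examined (Ncr1, Klrb1c, Klrd1, Klrk1, Eomes, Tbx21, Prf1, Gzmb and Il2rb) had a region within 1000 bp of a gene end. The same held for 3 of 6 T cell genes, 1 of 4 B cell genes and 1 of 4 myeloid genes, and Cd8a, Cd8b1, Ms4a1, Lyz2 and Adgre1 had no region there or within the gene.

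Glycolysis breaks glucose down to pyruvate, which lymphocytes that grow and divide largely turn into lactate and export. The kinase mTOR integrates cytokine signals with the supply of amino acids and energy, and it promotes the making of glucose and amino acid transporters and of glycolytic enzymes, in part through the transcription factors HIF-1alpha and SREBP. In NK cells, interleukin-15 is a known activator of mTOR, and mTOR activity is needed for their growth and effector functions.

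The RefSeq table of promoters matched 32 of the 37 genes, and in 32 of these 32 a region covered at least 1 annotated start site. The 32 genes have 46 annotated starts, of which 41 were covered; the others are alternative starts of Aldoa, Hk1, Pfkm and Srebf1. Of all 17491 protein-coding genes in that table, 9564 (54.7%, interval 53.9 to 55.4%) had a region over a start site. Of the 34 regions that covered a start site of the set, 0 were up and 0 were down, whereas 0.684% of all 9211 start-site regions were up and 0.239% were down. With 34 regions, a count of 0 allows a share of up to 8.82%, so that a difference from these backgrounds was not detectable. The widths of the 34 regions ran from 507 to 2074 bp with a median of 993.5 bp, close to the median of 970 bp over all start-site regions. The widest lay at Ldha, which encodes the lactate dehydrogenase subunit that favours lactate formation. That at Tsc2 was assigned to the neighbouring gene Nthl1. The genes Slc2a3, Slc1a5, Slc38a1, Slc7a5 and Gls2 were not matched in the promoter table, and each had at least 1 region within 1000 bp of a gene end.

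Sequences upstream of the start are shown for 4 of the genes whose sequence lies whole within an open region that neither list holds. Slc2a1, Slc16a1 and Hk2 were the nearest protein-coding genes to up regions elsewhere, as described below, and Pgk1 was not. This contrast depends on the assignment: these 3 genes had no up region within 10 kb, and Pgk1 had one when regions went to the nearest RefSeq start site. Each is the 250 bases before the RefSeq start, 5′ to 3′ on the gene's strand, in build GRCm38.p6. Capitals mark ACGTG on either strand, the core of the hypoxia response element, and the longer CACGTG, the E-box bound by MYC and related factors, which holds ACGTG on both strands. All 4 sequences shown hold ACGTG. Those of Slc38a2, Gpi1, Pfkl, Tpi1, Ldhb, Mtor, Prkaa1 and Srebf2, also whole within unlisted regions, do not.
Slc2a1, chr4:119108495-119108744, plus strand: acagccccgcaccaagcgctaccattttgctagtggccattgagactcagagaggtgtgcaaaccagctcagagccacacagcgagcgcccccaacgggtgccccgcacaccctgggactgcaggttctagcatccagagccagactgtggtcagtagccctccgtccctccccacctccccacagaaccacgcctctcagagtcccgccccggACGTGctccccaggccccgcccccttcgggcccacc
Slc16a1, chr3:104638414-104638663, plus strand: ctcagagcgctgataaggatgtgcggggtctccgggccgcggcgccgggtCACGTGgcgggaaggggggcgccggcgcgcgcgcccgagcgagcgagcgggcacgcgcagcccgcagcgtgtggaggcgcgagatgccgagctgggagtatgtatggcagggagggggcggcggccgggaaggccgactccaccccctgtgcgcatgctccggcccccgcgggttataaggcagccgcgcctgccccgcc
Hk2, chr6:82774455-82774704, minus strand: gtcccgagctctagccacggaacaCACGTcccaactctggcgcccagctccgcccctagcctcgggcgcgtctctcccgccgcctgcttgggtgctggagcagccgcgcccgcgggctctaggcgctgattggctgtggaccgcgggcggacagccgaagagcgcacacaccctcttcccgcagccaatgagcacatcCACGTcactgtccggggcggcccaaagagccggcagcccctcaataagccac
Pgk1, chrX:106186850-106187099, plus strand: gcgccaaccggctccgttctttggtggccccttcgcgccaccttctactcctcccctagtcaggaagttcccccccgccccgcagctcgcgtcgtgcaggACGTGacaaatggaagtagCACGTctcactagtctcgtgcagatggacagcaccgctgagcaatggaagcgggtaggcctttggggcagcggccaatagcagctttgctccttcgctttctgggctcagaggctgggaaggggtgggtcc

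The motif ACGTG was found in the upstream windows of 16 of the 32 matched genes, counting all start sites of a gene, or in 19 of 46 windows, and in 17.8% of all 21262 windows of protein-coding genes. The E-box CACGTG occurred in 6 of the 32 genes (Hif1a, Ldha, Pfkfb3, Pfkm, Rheb and Slc16a1), in 6 of 46 windows, against 6.63% of all windows. Windows of the same gene can overlap. The STAT motif TTCNNNGAA was present in 2 of 46 windows, at Mtor and Pfkm, against 6.58% of all. The AP-1 motif TGANTCA was in 1 of 46, at Aldoa, against 6.13% of all. These are matches of letters on either strand and do not show binding.

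Of the 291 regions, 16 were up, or 5.5% (interval 3.41 to 8.74%), and 3 were down, or 1.03% (0.351 to 2.99%). Over all regions, 4.21% were up and 1.40% were down, within both intervals. The 16 up regions belonged to 11 of the 37 genes (29.7%, interval 17.5 to 45.8%), where 16.1% of all genes with a region had an up region. The 11 include Gls2, a gene in the set with its up region already known, so that its place among them was fixed beforehand. The 3 down regions all belonged to Pfkp, which made 1 gene of 37 (2.7%, 0.479 to 13.8%) against a background of 5.39%. For 26 genes neither list held a region. Genes with more regions have more chances of a listed one, and the 37 genes had a median of 5 regions (range 1 to 33) against 3 over all genes. Among genes with exactly as many regions as each member, 23.9% had an up region on average, equal to 8.86 genes of 37, and 7.42% a down region, equal to 2.74 genes. The observed 11 and 1 lie on either side of these averages, and the interval of each observed share holds the corresponding average. The counts thus stayed near the background.

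**Figure D1:**
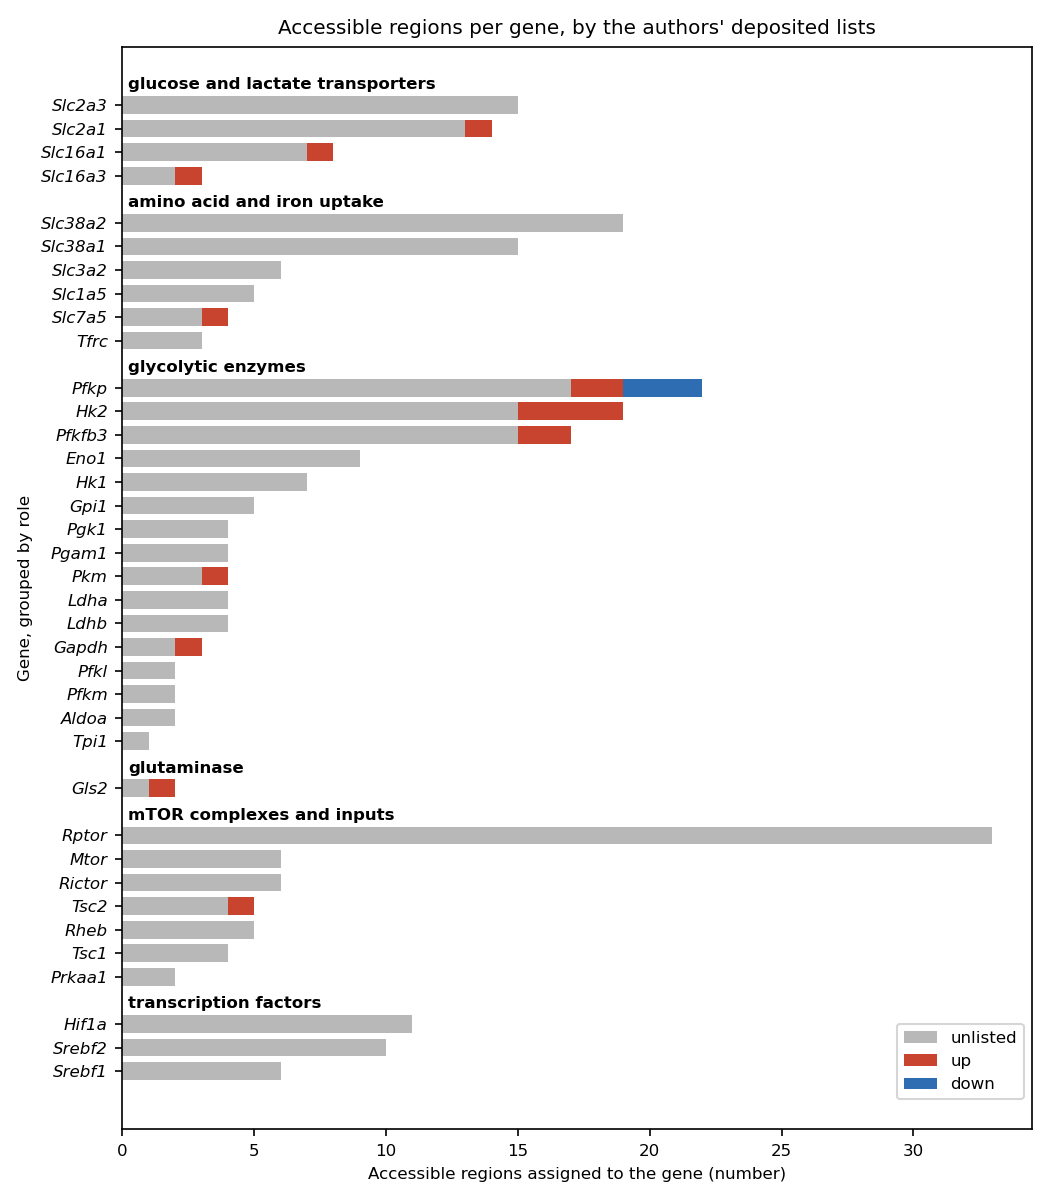
Number of accessible regions assigned to each of the 37 genes (horizontal axis), grouped by role and coloured by the authors' deposited lists. Up regions were present at 11 genes and down regions at Pfkp alone among the 37, while Rptor had 33 regions and no listed one.

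The same counts were split by the number of regions per gene, and each class holds too few members for a comparison. Of the 14 members with 3 to 5 regions, 5 had an up region, against 12.9% of all 4800 genes with that many. Those 5 were Slc16a3, Slc7a5, Gapdh, Pkm and Tsc2. In the class of 1 or 2 regions, 1 member of 6 had an up region, Gls2, whose region was known beforehand, against 3.75% of all. Of the 8 members with 6 to 10 regions only Slc16a1 had an up region, against 27.0% of all genes. Between 11 and 20 regions 3 of 7 members did (Slc2a1, Hk2 and Pfkfb3), against 41.9%. Above 20 regions, Pfkp had up regions and Rptor had none, with a share of 58.1% over all such genes.

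**Figure D2:**
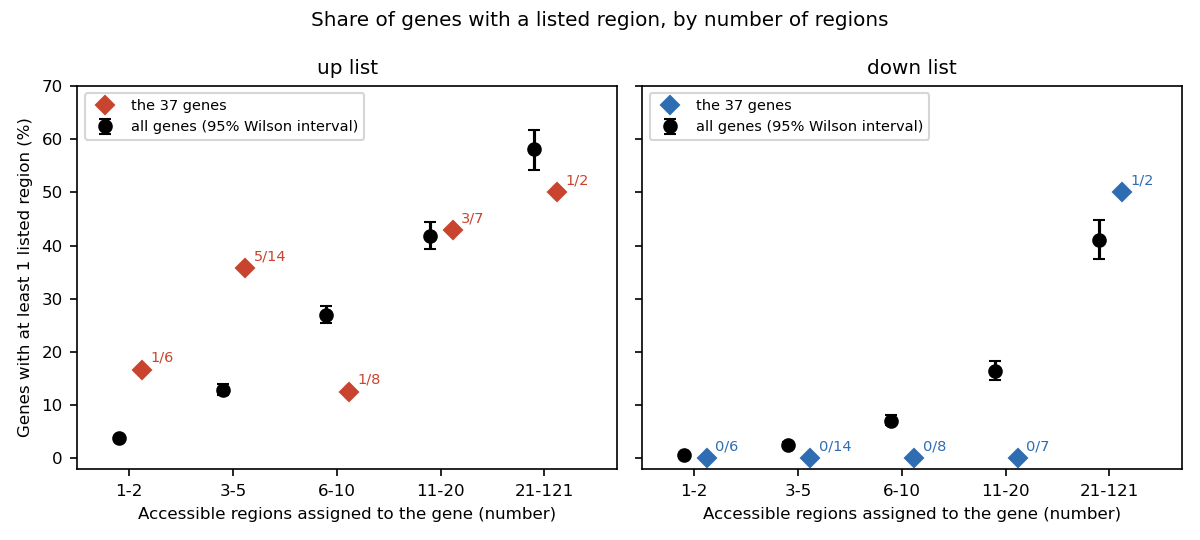
Share of genes with at least 1 up region (left) or down region (right), in percent, by the number of regions assigned to the gene. Black points are all protein-coding genes with 95% Wilson intervals, and diamonds are the 37 genes with their counts; for the up list, 5 of 14 members with 3 to 5 regions and 1 of 8 with 6 to 10 regions had a listed region, and each class of members is small.

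By position, 2 of the 16 up regions lay over a gene end, 5 within a gene, 5 upstream and 4 downstream. Of the 14 up regions whose gene is in the promoter table, none covered an annotated start site; those of Slc7a5 and Gls2 could not be checked. Up regions at a gene end, within 1000 bp, made up 12.5% of the 16 (interval 3.5 to 36.0%), against 5.38% of all up regions. Those 2 were among the 51 regions of the set at gene ends, of which 0 were down, which allows a share of up to 5.88%. For comparison, 1.33% of all regions at gene ends were up and 0.609% were down. Of the 9 up regions outside the gene, 8 were more than 10 kb from it, with a median distance of 39.4 kb (range 2.9 to 249 kb). For 10 of the 16, a gene of another biotype, such as a non-coding RNA, was nearer than or as near as the protein-coding gene named here, and 5 of those 10 lay within that other gene. Assignment to the nearest gene does not show that a region acts on it.

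Glucose enters lymphocytes through GLUT1 and GLUT3, encoded by Slc2a1 and Slc2a3, and lactate crosses the membrane through MCT1 and MCT4, encoded by Slc16a1 and Slc16a3. Together these 4 genes had 40 regions, of which 3 were up (7.5%, interval 2.58 to 19.9%) and 0 were down, which allows a down share of up to 7.5%. Both backgrounds, 4.21% up and 1.40% down, lie within these limits. Slc2a1, at chromosome 4, 119108745 to 119137330, had 14 regions. Its up region, of 416 bp at chr4:119068921-119069336, was the farthest upstream of them, 39.4 kb before the start and within the gene Gm12866. The 5 upstream regions between it and the start-site region of 1071 bp were unlisted. Slc16a1, at chromosome 3, 104638664 to 104658462, had 8 regions, and its up region of 594 bp at chr3:104670112-104670705 was 11.7 kb past the gene's end. Its start-site region of 1934 bp, the widest of its regions, was unlisted. Slc16a3, at chromosome 11, 120948484 to 120959000, had the fewest regions of the 4 genes, 3. The up region among them, of 631 bp at chr11:120950632-120951262, lay inside the gene 1.56 kb after the start. Slc2a3 had the most regions of the group, 15, with none listed, although 44.7% of the 150 genes with 15 regions had an up region.

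Amino acids and iron are taken up by the second group. Slc7a5 and Slc3a2 encode the light and heavy chains of the CD98 transporter of large neutral amino acids, Slc1a5 encodes the glutamine carrier ASCT2, and Slc38a1 and Slc38a2 encode further carriers of small neutral amino acids. Tfrc encodes the transferrin receptor CD71. The 6 genes had 52 regions, of which 1 was up (1.92%, interval 0.34 to 10.1%) and 0 were down, which allows a down share of up to 5.77%, against 4.21% and 1.40% of all regions. That region, of 764 bp at chr8:121898120-121898883, lay inside Slc7a5 (chromosome 8, 121881146 to 121907686), 8.8 kb from the nearer end. The other 3 regions of Slc7a5, among them 1 of 953 bp over the same gene end, were unlisted. Slc38a2 had 19 regions, as many as Hk2, and none was listed, and 15 regions of Slc38a1 and 6 of Slc3a2 were unlisted too. An up region was present at 51.9% of all genes with 19 regions, 44.7% of those with 15 and 22.3% of those with 6. Tfrc had the fewest, 3, and none was listed, where 9.32% of all genes with 3 regions had an up region. Regions of this group were wide, with a median of 594.5 bp against 400 bp over all regions.

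The 16 genes of glycolytic enzymes had 109 regions and most of the listed ones: 10 up (9.17%, interval 5.06 to 16.1%) and 3 down (2.75%, 0.94 to 7.78%), against 4.21% and 1.40% of all regions. By gene, 5 of 16 had an up region (31.2%, interval 14.2 to 55.6%), against 16.1% of all genes. Of the 10 up regions, 3 lay within the span of their gene and 4 belonged to Hk2. With the nearest gene of any biotype, only Gapdh and Pfkfb3 of these 16 genes kept an up region. The up share of this group thus depends on the assignment of regions outside genes. Of the 13 listed regions, 11 belonged to Hk2, Pfkp and Pfkfb3, which also held 58 of the 109 regions. These genes are grouped here after their values were seen. Hk2 encodes hexokinase 2, which traps glucose in the cell by phosphorylating it. Pfkp encodes a subunit of phosphofructokinase, which catalyses the committing step, and Pfkfb3 encodes an enzyme that makes the activator of phosphofructokinase. The genes of other isoforms of those enzymes, Hk1 (7 regions), Pfkl (2) and Pfkm (2), had no listed region. Of all genes with 7 regions 24.1% had an up region, and of those with 2 regions 5.58%, so that most such genes have none.

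Hk2, at chromosome 6, 82725025 to 82774454, had 4 up regions of 19, the most of the 37 genes. Among the 81 genes with 19 regions, 42 had an up region and 7 (8.64%) had 4 or more. The 4 formed 2 pairs, none of them in the gene. The downstream pair, of 467 bp at chr6:82702602-82703068 and 1098 bp at chr6:82708331-82709428, began 15.6 kb past the gene's end, with 5.26 kb between its members. The upstream pair, of 541 bp at chr6:82821765-82822305 and 618 bp at chr6:82823858-82824475, stood 47.3 and 49.4 kb before the start with a gap of 1.55 kb. No unlisted region lay between the members of either pair. The 11 regions that lay between the pairs, including that over the start (629 bp), were all unlisted. The nearest protein-coding genes after Hk2 were Pole4, 49.6 and 55.3 kb from the downstream pair, and Sema4f, 89.6 and 87.4 kb from the upstream pair. Each of the 4 regions was nearer to a gene of another biotype than to Hk2, and within 10 kb of the gene no region was up.

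Pfkp was the sole member with regions in both lists, with 2 up and 3 down regions of 22 (chromosome 13, 6579874 to 6649060). Over all genes with a region 1.36% had both, but of the 51 genes with 22 regions, 10 (19.6%) did. Of those 51 genes, 15 (29.4%) had 2 or more up regions and 1, Pfkp itself, had 3 or more down. Moving along the gene from its start, the up region of 204 bp at chr13:6646349-6646552 came first, 2.22 kb inside. It was followed by the down regions of 268 bp at chr13:6634779-6635046, 13.7 kb from the start, and of 310 bp at chr13:6627387-6627696, at 21.1 kb. The third down region, of 449 bp at chr13:6689899-6690347, was 40.8 kb upstream of the gene. The second up region, of 521 bp at chr13:6897696-6898216, was 249 kb upstream, the farthest listed region of the set. The 5 listed regions were between 204 and 521 bp wide, and 2 of the 3 down regions and both up regions lay nearer to, or equally within, a gene of another biotype. When genes of any biotype could be the nearest, Pfkp had no up region.

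Pfkfb3, at chromosome 2, 11471430 to 11554071, had 2 up regions of 17. Of the 122 genes with 17 regions, 18 (14.8%) had 2 or more. An up region of 549 bp at chr2:11530176-11530724 lay inside the gene, 23.2 kb from the nearer annotated start, and a second of 434 bp at chr2:11429571-11430004 lay 41.4 kb past its end, within the gene Gm31990. The regions over both annotated starts (1385 and 1308 bp) were unlisted.

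**Figure D3:**
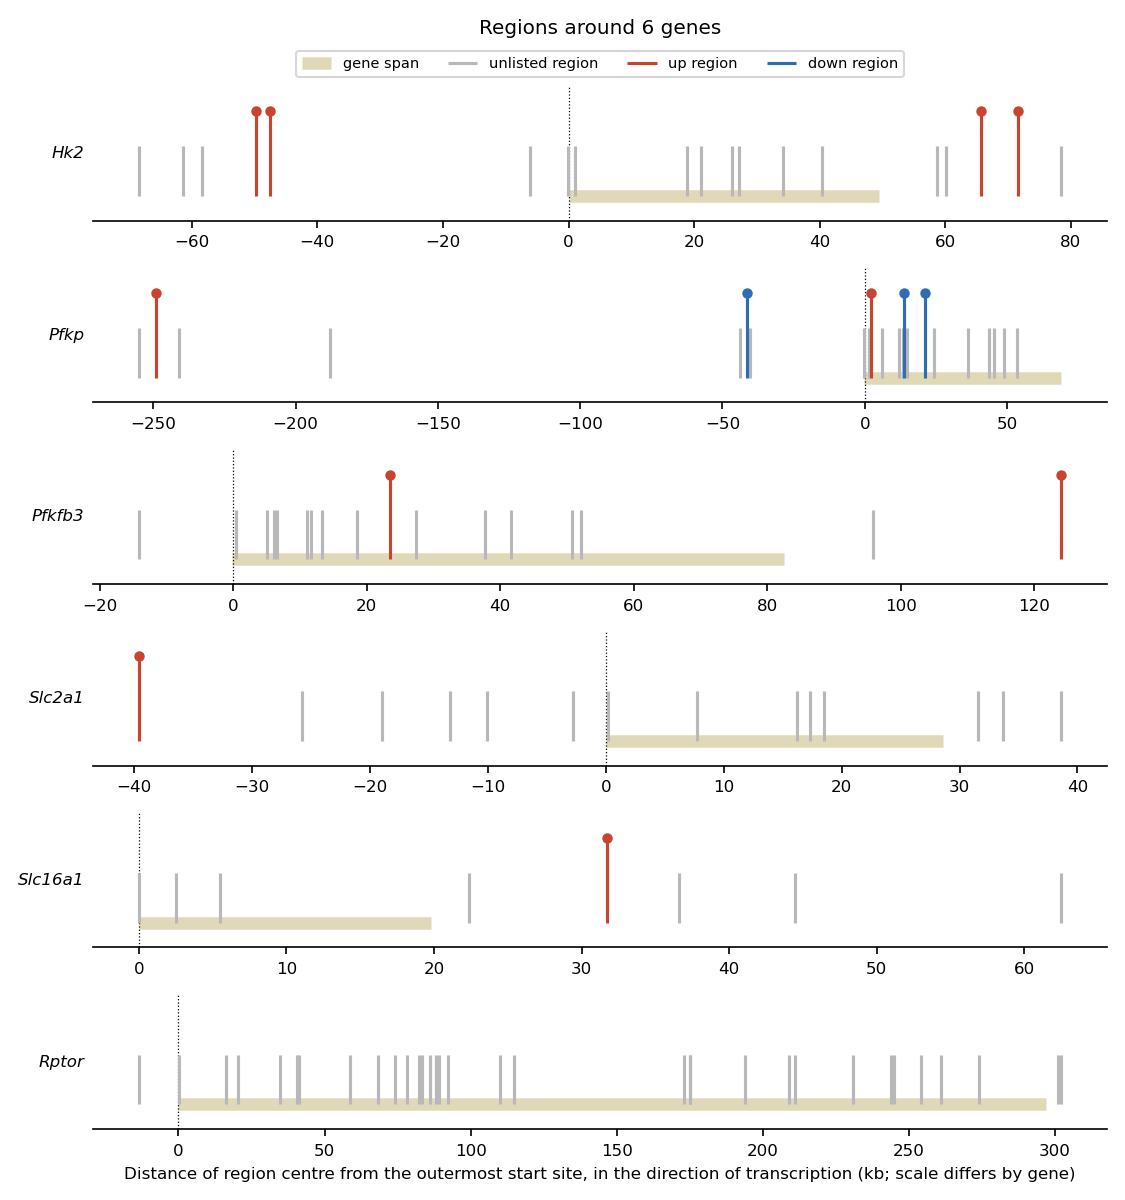
Regions around Hk2, Pfkp, Pfkfb3, Slc2a1, Slc16a1 and Rptor, plotted as the distance of the region's centre from the outermost start site in kb, with negative values upstream and a separate scale for each gene. Lines with a dot are up (red) or down (blue) regions, short grey lines are unlisted regions and the bar is the gene; the 4 up regions of Hk2 stand in 2 pairs outside the gene, and no listed region covers a start.

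Lower in the pathway, up regions were found at Gapdh and Pkm. Gapdh, which encodes the dehydrogenase of the middle of the pathway, lies at chromosome 6, 125161852 to 125166467, and had 3 regions. Its up region of 521 bp at chr6:125166211-125166731 covered the 5′ end of the gene's span, 264 bp of it outside, and ended 438 bp before the annotated start, which another, unlisted region of 1643 bp covered. At Pkm (chromosome 9, 59656576 to 59679372), whose pyruvate kinase makes pyruvate in the last step, a region of 155 bp at chr9:59653523-59653677 was up. It lay 2.9 kb before the start and was the narrowest listed region of the set. The region of 1584 bp over the Pkm starts was unlisted. Neither list held a region of Gpi1, Aldoa, Tpi1, Pgk1, Pgam1, Eno1, Ldha or Ldhb, which had between 1 region (Tpi1) and 9 regions (Eno1). An up region was present at 2.24% of all genes with 1 region and 34.0% of those with 9.

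Gls2 encodes the glutaminase first known from liver, which turns glutamine into glutamate. It had 2 regions, and of the 2993 genes with 2 regions 5.58% had an up region. The up region of 1726 bp at chr10:128193985-128195710 covered the lower-coordinate end of the gene (chromosome 10, 128194635 to 128210004), with 650 bp outside it. No other region of either list among the 37 genes was as wide, and the median of the 16 up regions was 531 bp. The second region of Gls2, of 726 bp and 5.49 kb outside the gene, was unlisted. The gene is in the set with this region already known from earlier results.

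The mTOR group comprises the kinase (Mtor), the defining subunits of its complexes (Rptor for mTORC1, Rictor for mTORC2), the activating GTPase Rheb, the inhibitors Tsc1 and Tsc2, and Prkaa1, a catalytic subunit of the energy sensor AMPK. Its 7 genes had 61 regions, 1 of them up (1.64%, interval 0.29 to 8.72%) and 0 down, which allows a down share of up to 4.92%, against 4.21% and 1.40% of all regions. The up region, of 439 bp at chr17:24605056-24605494, lay inside Tsc2 (chromosome 17, 24595816 to 24632676), 9.24 kb from its nearer end and 27.1 kb from its start. Tsc2 encodes the part of the TSC complex that switches Rheb off. Rptor, with a length of 297 kb, had 33 regions, 30 of them within the gene, and none was listed. Of the 20 genes with 33 regions, 13 (65.0%) had an up region. Mtor and Rictor had 6 regions each, Rheb 5, Tsc1 4 and Prkaa1 2, all unlisted. Regions of the group were mostly within genes (90.2%, interval 80.2 to 95.4%, against 61.0% of all regions) and narrow, with a median of 303 bp.

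Hif1a, Srebf1 and Srebf2, which encode the transcription factors HIF-1alpha, SREBP1 and SREBP2, had 11, 6 and 10 regions. None of these 27 was listed, which allows a share of up to 11.1% for either list, against 4.21% up and 1.40% down of all regions. A difference from these backgrounds was thus not detectable. Only 2 of the 11 regions of Hif1a were within the gene, and the farthest stood 58.5 kb from it.

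Widths differed between the classes of regions. The 33 start-site regions assigned to the 37 genes had a median of 1008 bp, and the remaining 239 unlisted regions had a median of 364 bp. The up regions, with a median of 531 bp, lay between these, ranging from 155 bp at Pkm to 1726 bp at Gls2. Across all 3845 up regions of the series the median was 453 bp. The 3 down regions measured 268, 310 and 449 bp.

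**Figure D4:**
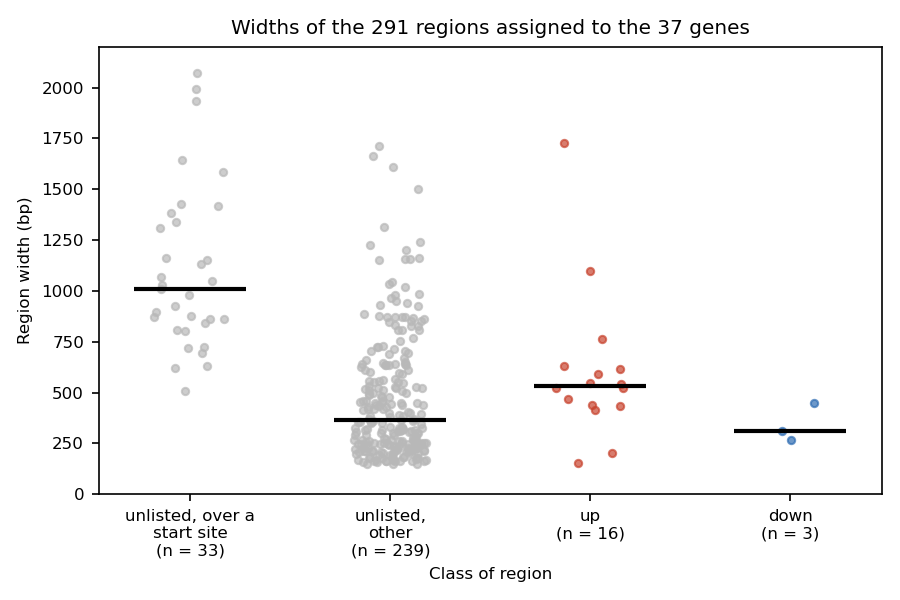
Width in bp of the 291 regions, each point 1 region and each bar the median of its class; regions over starts of genes missing from the promoter table are in the second class. Start-site regions were widest (median 1008 bp), and 14 of the 16 up regions reached the median of all regions, 400 bp, as did 63.2% of all up regions of the series.

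At gene ends, within 1000 bp, lay 51 of the 291 regions (17.5%, interval 13.6 to 22.3%), against 17.1% of all regions. By role this share ran from 11.5% for the mTOR group to 22.0% for glycolytic enzymes, apart from Gls2 with 1 of its 2 regions. Within the nearest gene's span were 197 of the 291 (67.7%, 62.1 to 72.8%), against 61.0% of all. Rptor alone held 30 of these 197, and the share without it was not calculated.

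Further genes of the same pathways, 93 in number, were listed to set beside the 37. Of these, 91 had a region, 599 in all. Up regions were 29 (4.84%, interval 3.39 to 6.87%) and down regions 2 (0.334%, 0.0916 to 1.21%), against the backgrounds of 4.21% and 1.40%. At least 1 up region was present at 19 of the 91 genes (20.9%, 13.8 to 30.3%) and a down region at 2 (2.2%, 0.605 to 7.66%), where 16.1% and 5.39% of all genes had them. The most belonged to Egln3, which encodes an oxygen-dependent hydroxylase that marks HIF-1alpha for destruction, with 6 of 27 regions up. These ran from 20.2 kb past the gene to 113 kb before it, with the closest to the start 1.34 kb upstream, and 1 lay inside the gene. Sesn3, which encodes a sestrin that restrains mTORC1, had 3 of 28 regions up, all upstream at 38.4 to 116 kb.

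Several of these genes had 1 or 2 listed regions. Deptor, an inhibitory subunit of both mTOR complexes, had 2 of 6 up, 1 inside the gene and 1 at 3.59 kb. Eif4ebp1, whose product holds back translation until mTOR phosphorylates it, had 2 of 6 up, 1 inside the gene and 1 at 7.33 kb. Fnip2, a partner of folliculin in nutrient sensing, had 1 up and 1 down region of 10, both inside the gene. Akt2 had 1 of 7 regions up. Insig1, an inhibitor of SREBP processing, had 1 of 11 up at 6.93 kb upstream. In Bpgm, a mutase of a side branch of glycolysis, 1 of 10 regions was down.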

How the data were processed

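ATAC-seq was performed on 4 samples, 2 per dose. Per the submitters' processing notes, BWA, ArchR, MACS2 and HOMER 4.11.1 were used with build mm10; their roles, thresholds and any pooling of replicates are not given in the sources used here. The tables deposited by the authors hold positions and widths of regions and 0 columns of values per sample, so the test of the doses planned for counts or normalized values could not be made. All 3845 up and 1275 down regions were found in the list of all regions after its 0-based starts were raised by 1. Coordinates are 1-based.

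Regions were given to the nearest of 21883 protein-coding genes of RefSeq GRCm38.p6 (the same assembly as mm10) whose span was closest, ties going to the nearer end. Start sites, strands and sequences came from the RefSeq promoter table of that build, which holds 17491 of these genes. Exons and introns were not annotated. Regions are not replicates, and no test was made. Python 3.11.15, pandas 2.3.3 and SciPy 1.17.1 were used. The members, the lists and the roles were chosen with earlier results of these data known. Named are all members with a listed region, those with the most and fewest regions in each role, and at most 10 other pathway genes ranked by listed regions, not all of which are reported here. Alternatives were other assignments of regions to genes, other distances to gene ends, wider regions only and leaving out single genes.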

Additional observations from a re-analysis of the deposited data

How the results depend on the processing

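No paired analysis was possible because neither dose has values for its replicates. For the same reason stricter thresholds, other normalizations and leaving out a replicate were not run. Of 30 alternatives for 7 results, 9 moved a share outside its reported interval or a count by more than 1.5 times. The number of members with an up region, 11, became 7 when regions counted only for genes they overlap and 6 when the nearest gene of any biotype was used, all of them among the 11. Under both rules Hk2, Slc2a1, Slc16a1 and Pkm lost their up regions, as did Pfkp with genes of any biotype. Within 10 kb the number was 8, without Hk2, Slc2a1 and Slc16a1. By the nearest RefSeq start site it was again 11, of which 9 were shared; Hif1a and Pgk1 entered, and Slc7a5 and Gls2, which are not in that table, left. The share of up regions, 5.5%, was 3.24% within 10 kb (all such regions 3.6%), 3.52% in regions that overlap a gene (3.42%), 2.78% with genes of any biotype (3.75%) and 8.75% in regions of at least the median width (5.32%). It thus stood above the share of all regions under some rules and below it under others. The share of down regions, 1.03%, was 0% without Pfkp, since all 3 belong to it (0 of 269 allows up to 1.12%), 0.463% with genes of any biotype (all such regions 1.35%) and 0.625% in regions of at least the median width (2.07%). The share at gene ends, 17.5%, was 11.0% at 100 bp (all regions 11.5%), 25.4% at 3000 bp (26.0%) and 24.5% with genes of any biotype (23.1%). These moves follow from which regions each rule admits.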
